A study of Homo sapiens with 15 samples.

Results

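The zinc finger genes described here are those whose symbol begins with ZNF and a digit and whose log2 expression value, averaged over all 15 arrays of the series, was 6.0 or more, taking the probe set with the highest mean for each gene. Of 491 such symbols among the 14884 genes with a symbol, 221 met the limit, 258 lay below it and 12 belong to the 13 genes that the rule sets aside by name. Apart from the genes set aside by name, members were thus chosen by their symbol and their mean log2 value over every array. No difference between groups entered the limit. The rule gives no reason for the genes set aside, which are in none of the counts below unless named. Of the 12 that had a symbol here, 7, 7, 2 and 4 were called lower in clones 1, 2, 3 and 6 respectively. That was 58.3% each in clones 1 and 2, and the shares of all genes lower were 11.2%, 11.5%, 11.0% and 14.7%. In no clone was any of the 12 called higher, beside 6.03%, 5.47%, 6.22% and 7.73% of all genes. Except for ZNF280D (chromosome 15) and ZNF853 (chromosome 7), the 12 lie on chromosome 16. Of the 318 genes there with a mean of 6.0 or more, 24.5%, 24.8%, 8.49% and 9.75% were lower in clones 1, 2, 3 and 6. The shares higher there were 3.77%, 3.46%, 19.8% and 23.6%. With them counted in, more ZNF genes were lower in each clone, as given at the end. Just inside the limit stood ZNF554 (6.00), ZNF561 (6.02) and ZNF182 (6.03), and just outside it ZNF615 (6.00 after rounding), ZNF180 (5.98) and ZNF17 (5.98). By annotation 219 of the 221 genes code for proteins, and ZNF767P and ZNF271P are transcribed pseudogenes.

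Most ZNF proteins bind DNA through an array of C2H2 fingers, small folds held by a zinc ion that each contact a few bases. Many also carry a KRAB box, which recruits the co-repressor TRIM28 and, through it, the histone methyltransferase SETDB1 and HP1 proteins, and a number of these KRAB proteins silence transposable elements. The KRAB genes multiplied by tandem duplication and lie largely in clusters on chromosome 19, whereas ZNF genes without a KRAB box include regulators of the breast epithelium such as ZNF217 and ZNF703.

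Total RNA was measured from BT474, an established human line of HER2-amplified luminal breast carcinoma, and from 4 lines derived from it: C#1 (clone 1 here), C#2 (clone 2), C#3 (clone 3) and C#6 (clone 6). These resist trastuzumab emtansine (T-DM1), which carries a microtubule poison on a HER2 antibody. The parental group was the sensitive line, and every clone had been grown from a single cell after prolonged T-DM1 exposure and then kept in 5 nM T-DM1 for 3 months. Each of the 5 groups had 3 arrays, labelled as biological replicates, so p-values measure the spread between such samples and not between independent clones. The sources used here do not say whether drug was in the medium at harvest, and an unselected clone was not analysed here, so resistance, cloning and drug culture cannot be told apart. Of the luminal breast markers 12 of the 13 with a symbol had a mean of 6.0 or more (KRT8 was at 5.80), against 0 of 3 each for basal, fibroblast, leukocyte and endothelial markers. ERBB2 had no symbol here. Called lower were 3, 2, 6 and 6 of these 13 luminal markers in clones 1, 2, 3 and 6, and 2, 2, 1 and 2 were higher. The upper quartile of all probe sets was 5.94 to 5.96 in the parental arrays and 5.80 to 5.89 in the clone arrays. The mean of 10 proliferation genes was 9.0 to 9.1 in the parental arrays. It was 8.79 to 9.03 in clone 1, 8.78 to 9.18 in clone 2, 8.52 to 8.68 in clone 3 and 8.29 to 8.55 in clone 6. In these clones 3, 2, 5 and 7 of the 10 were called lower, beside 11.2%, 11.5%, 11.0% and 14.7% of all genes. Parental replicate 2 stood apart in 7 early response genes, with a mean of 7.13 beside 6.19 and 6.30 in the other parental arrays and 6.02 to 6.41 in the clone arrays. In EGR1, an immediate early gene, it read 9.31 beside 6.49 and 7.31 and 5.35 to 6.69. Counts against the parental line are therefore given without that array too. The part of these differences in the results below was not tested.

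The 221 genes had a median mean of 6.94 (quartiles 6.45 and 7.55): 116 lay between 6 and 7, 77 between 7 and 8, 20 between 8 and 9, and 8 at 9 or more. Values of different genes come from different probes and were not set against each other. The 5 genes with the highest means were ZNF652 (10.88), ZNF217 (9.64), ZNF207 (9.63), ZNF146 (9.59) and ZNF106 (9.28). ZNF207, a spindle and kinetochore protein, and ZNF146 were called in no comparison; ZNF207 ranged from 9.69 to 9.80 in the parental arrays and from 9.44 to 9.72 over the 12 clone arrays. The median SD within a group was 0.16 for the ZNF genes and 0.14 for the 5942 tested genes with a mean of 6.0 or more. Averaged over the 221 genes, the parental arrays lay at 7.19 to 7.24, clone 1 at 7.05 to 7.14, clone 2 at 7.02 to 7.05, clone 3 at 7.03 to 7.19 and clone 6 at 6.99 to 7.01. The lowest parental array lay above all arrays of clones 1, 2 and 6 and equalled the highest clone 3 array to 2 decimals. Relative to each array's mean over the genes of 6.0 or more, this order did not hold: the parental arrays lay at -0.56 to -0.49, clone 1 at -0.59 to -0.54, clone 2 at -0.63 to -0.60, clone 3 at -0.61 to -0.52 and clone 6 at -0.68 to -0.60, so clones 1 and 3 overlapped the parental range. Whether near-identical ZNF transcripts bind each other's probes was not tested, so values of single genes with close copies are uncertain.

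The first comparison asked which ZNF genes differed between the parental line and the 4 clones on average. Calls were made at a Benjamini-Hochberg adjusted p below 0.05 in limma's moderated test over 12147 genes, and all adjusted p-values below are from such fits. In the mean of the 4 clones 9 ZNF genes were higher (4.07%, against 7.34% of all genes tested and 10.0% of the genes with a mean of 6.0 or more) and 51 were lower (23.1%, against 14.9% and 21.3%). The median change was -0.14 on the log2 scale, beside -0.01 for all genes and -0.07 for the genes of 6.0 or more. The share lower was thus close to that of other genes of this level, and the share higher was under it. Without parental replicate 2 the counts were 3 higher and 29 lower, and without parental replicate 3 they were 3 and 28. A renewed quantile normalization gave 17 higher and 33 lower with a median of -0.04. Shares of all genes are given for the main fit only, here and below. A count that changes under another setting need therefore not be particular to ZNF genes.

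**Figure D1:**
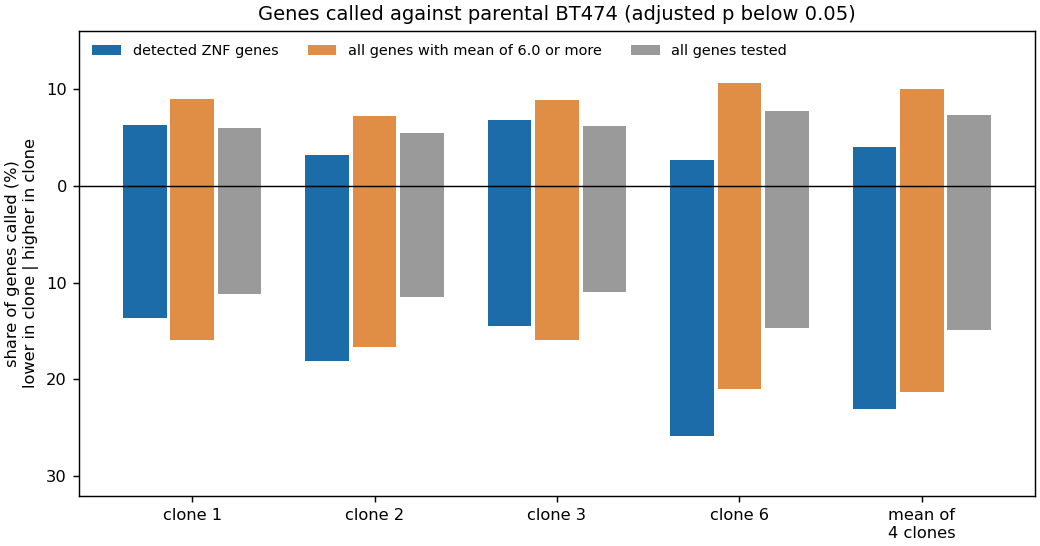
Share of genes (%) called higher (above the line) or lower (below the line) than parental BT474 in each clone and in the mean of the 4 clones, at an adjusted p below 0.05, for the 221 detected ZNF genes, the 5942 genes with a mean of 6.0 or more and all 12147 genes tested. Clone 6 shows 2.71% of ZNF genes higher and 25.8% lower; under renewed quantile normalization the clone 3 split was even, at 22 each.

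Beyond all 3 parental arrays in the called direction on all 12 clone arrays lay 3 higher ZNF genes (1.36%, against 2.86% of all genes) and 20 lower (9.05%, against 7.57%). Of the genes with a mean of 6.0 or more, 4.31% were higher and 11.1% lower in this way, so both ZNF shares were under those of that level. ZNF703, a transcriptional co-repressor of luminal breast cells, read 7.73, 8.03 and 8.18 in the parental arrays, 7.50, 7.32 and 6.61 in clone 1, 7.38, 6.54 and 7.05 in clone 2, 6.72, 6.49 and 6.82 in clone 3 and 6.37, 6.29 and 6.38 in clone 6. Every clone array was below every parental array, and clone 6 was below all others. The mean of the 4 clones was lower by 2.28-fold (log2 change -1.19, SE 0.17, adjusted p = 0.00012). By clone the changes were -0.84, -0.99, -1.30 and -1.63 (SE 0.21 each, adjusted p = 0.0128, 0.00442, 0.00064 and 4.95e-05 in clones 1, 2, 3 and 6). The clone 1 call was lost without parental replicate 3 or without clone 1 replicate 3 (smallest change -0.57, highest adjusted p = 0.0665).

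ZNF592, which sits with ZNF532, ZNF687 and the chromatin reader ZMYND8 in a complex, was the other member lower by at least 2-fold on average. It read 8.20, 8.20 and 8.30 in the parental arrays and 7.24 to 7.48 in clone 1, 7.23 to 7.44 in clone 2, 6.81 to 6.89 in clone 3 and 7.05 to 7.38 in clone 6. No clone array came near the parental ones, and clone 3 lay below the other clones. The average change was -1.03 (2.05-fold, SE 0.08, adjusted p = 6.03e-07). ZNF687, taken up as a partner and not by the naming rule, differed from parental by -0.15, -0.17, -0.20 and -0.12 in clones 1, 2, 3 and 6 and was not called.

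ZNF93, a KRAB protein that represses LINE-1 elements, read 8.55, 8.55 and 8.73 in the parental arrays and 7.33 to 7.96 over the 12 clone arrays. It fell in each clone (-0.84, -0.90, -1.01 and -0.94 in clones 1, 2, 3 and 6, SE 0.16; average 1.90-fold lower, adjusted p = 7.95e-05), and no difference between clones was called for it. ZNF91, its relative that silences SVA elements, was at 7.10 to 7.44 in the parental arrays and was called higher in clone 1 (7.59, 7.67 and 7.90; change 0.51, SE 0.16, adjusted p = 0.0359). That call ended without parental replicate 1 or 2 or clone 1 replicate 2 or 3 (highest adjusted p = 0.134). In clones 2, 3 and 6 ZNF91 differed from parental by 0.43, 0.16 and 0.19 and was not called.

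ZNF384, a factor whose gene is rearranged in some leukaemias, read 9.11, 9.14 and 9.26 in the parental arrays, 8.04 to 8.35 in clones 1, 2 and 6 and 8.70 to 8.83 in clone 3. It was lower in all 4 clones, by 0.40 in clone 3 and by 0.92 to 0.98 in the others on the log2 scale (SE 0.10, highest adjusted p = 0.014). A second, dimmer ZNF384 probe set (mean 5.17) read higher than parental by 0.09 to 0.25 in the clones, and with both probe sets averaged the clone 2 change was -0.37 (adjusted p = 0.0637). ZNF362 read 8.48 to 8.67 in the parental arrays and 7.37 to 8.25 over the clone arrays, and fell by 0.85, 1.00, 0.41 and 0.67 in clones 1, 2, 3 and 6 (SE 0.11). For both genes clone 3 lay between the parental line and the other clones without overlap with clones 1 and 2.

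Also lower on average with no overlap were ZNF718 (-0.65), ZNF267 (-0.63) and ZNF358 (-0.63). ZNF718 was at 7.85 to 7.99 in the parental arrays and 6.62 to 7.71 in the clones, and its clone 3 change of -0.51 was not called (adjusted p = 0.0802). ZNF267 read 7.29 to 7.40 in the parental arrays, 6.47 to 6.82 over the 9 arrays of clones 1, 2 and 3, and 7.10, 6.91 and 7.09 in clone 6, where its fall was the smallest (-0.33, SE 0.10, adjusted p = 0.0253). ZNF358 read 8.30 to 8.51 in the parental arrays and 7.48 to 8.12 in the clones.

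The 3 ZNF genes higher in all 12 clone arrays were ZNF277, ZNF460 and ZNF830. ZNF277 read 7.18, 7.23 and 7.12 in the parental arrays, 7.94, 7.66 and 7.61 in clone 1, 7.89, 7.89 and 7.40 in clone 2, 7.90, 7.64 and 7.35 in clone 3 and 8.18, 7.85 and 7.77 in clone 6. Its average rise was 0.58 (1.49-fold, SE 0.13, adjusted p = 0.00349), and in clone 3 alone the change of 0.45 was not called (adjusted p = 0.0638). ZNF460 averaged 8.48 in the parental line and rose by 0.32 (SE 0.09, adjusted p = 0.0142), and ZNF830 averaged 7.66 and rose by 0.28 (SE 0.07, adjusted p = 0.0111). The rises came to 1.25-fold and 1.21-fold. The ZNF460 call ended without parental replicate 1 or 2 (change at least 0.29, highest adjusted p = 0.0820) and the ZNF830 call without parental replicate 3 (change 0.23, adjusted p = 0.0971).

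**Figure D2:**
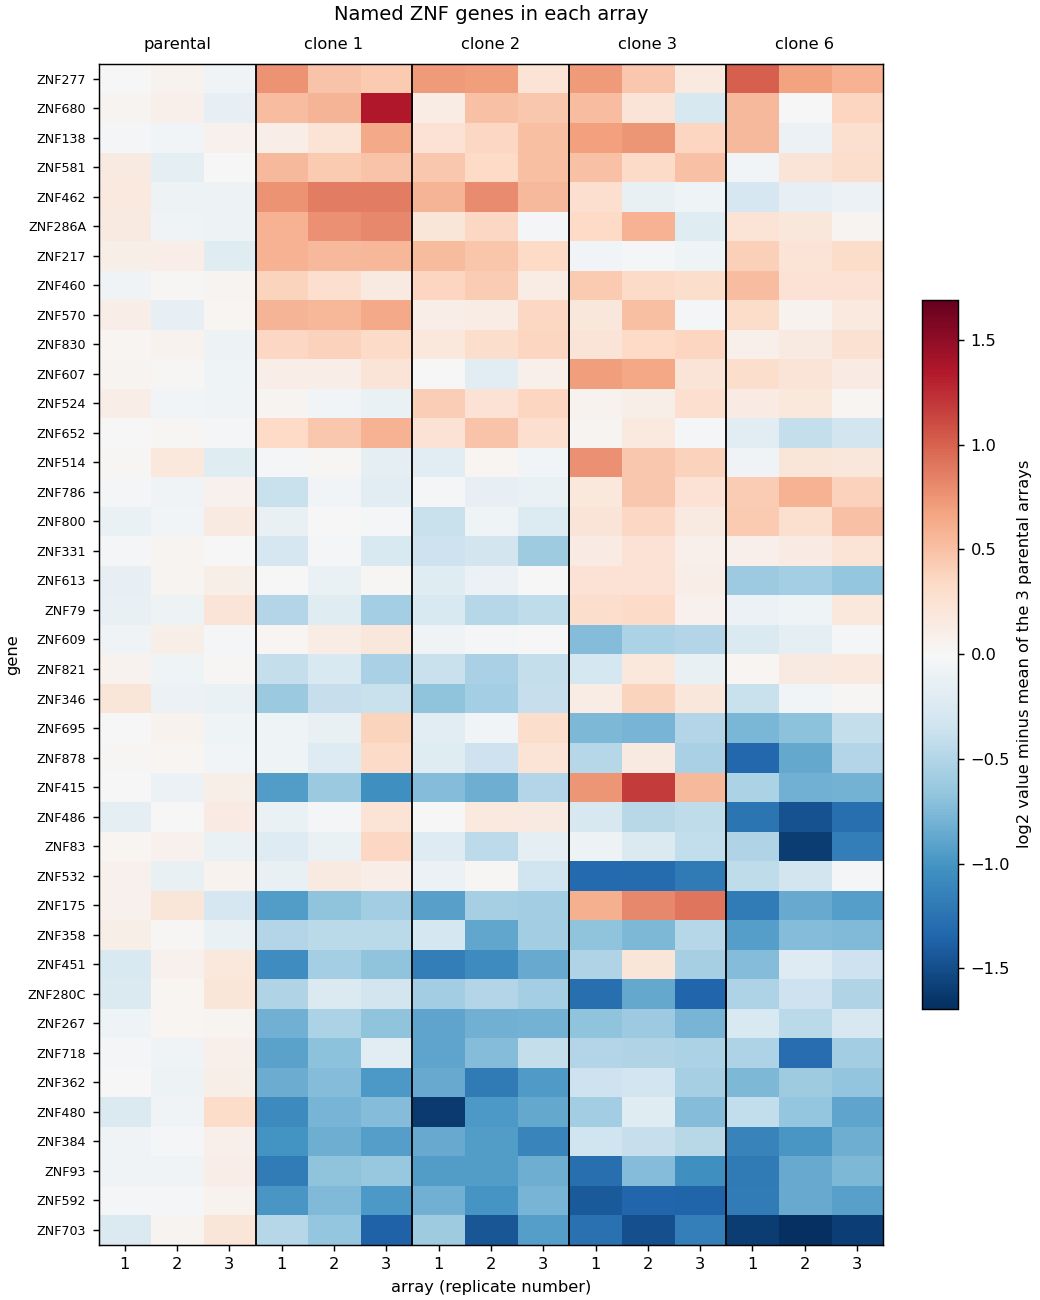
Log2 value minus the mean of the 3 parental arrays for 40 named ZNF genes (rows) in each of the 15 arrays (columns, by group and replicate number); red is higher and blue lower than parental. ZNF703, ZNF592 and ZNF93 are blue in all 12 clone arrays, ZNF277 is red in all 12, and ZNF175 and ZNF415 are red in clone 3 and blue in clones 1, 2 and 6.

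The next comparisons set each clone against the parental line; they share the 3 parental arrays, so each clone's own values are given. In clone 1, 14 ZNF genes were higher (6.33%, against 6.03% of all genes and 9.02% of genes of 6.0 or more) and 30 lower (13.6%, against 11.2% and 15.9%), with a median change of -0.09. None reached 2-fold, beside 1.19% of all genes. Without parental replicate 3 the counts were 7 and 17. The counts were 8 and 23 without parental replicate 2, the count higher was 9 without clone 1 replicate 2 or 3, and the count lower was 19 without clone 1 replicate 1.

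ZNF462, a C2H2 protein needed in development, read 6.79, 6.54 and 6.53 in the parental arrays, 7.38, 7.49 and 7.49 in clone 1 and 7.19, 7.41 and 7.17 in clone 2. The arrays of clones 1 and 2 lay clear of the parental ones, with rises of 0.83 and 0.64 (SE 0.12, adjusted p = 0.000225 and 0.00163). In clones 3 and 6 the changes of 0.03 and -0.17 were not called. ZNF680 (0.81), ZNF286A (0.72) and ZNF570 (0.59) were called higher in clone 1 and in no other clone; the direct contrast of clones 1 and 2 called none of them. The ZNF680 call ended without parental replicate 3 or clone 1 replicate 3 (change 0.55 at the lowest, highest adjusted p = 0.0845).

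In clone 1 the largest falls without overlap were in ZNF384 and ZNF592, given above, and in ZNF415 (-0.87), ZNF480 (-0.86) and ZNF362. ZNF480 read 8.68, 8.86 and 9.24 in the parental arrays, 7.86, 8.13 and 8.20 in clone 1 and 7.30, 7.96 and 8.05 in clone 2. It fell in both (adjusted p = 0.00649 and 0.000879) and in clone 6 (-0.66, adjusted p = 0.0258). In clone 3 the change of -0.51 was not called and 1 of its arrays overlapped the parental range.

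In clone 2, 7 ZNF genes were higher (3.17%, against 5.47% and 7.22%) and 40 lower (18.1%, against 11.5% and 16.6%), with a median change of -0.17 beside -0.02 for all genes; 3 of the called genes reached 2-fold (1.36%, against 1.37% of all genes). Renewed quantile normalization gave 13 higher and 24 lower. Without parental replicate 2 the counts were 2 and 25 and without parental replicate 3 they were 3 and 25, and the count higher was 4 without parental replicate 1 or clone 2 replicate 2. The genes lower by at least 2-fold were ZNF480 (-1.15), ZNF451 (-1.03) and ZNF362 (-1.0).

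ZNF451, an E3 ligase for SUMO, read 7.74, 8.06 and 8.16 in the parental arrays, 6.94, 7.41 and 7.30 in clone 1 and 6.82, 6.92 and 7.13 in clone 2. It was lower in these 2 clones without overlap (adjusted p = 0.012 and 0.00176). Its second probe set, with a mean of 6.56, differed from parental by -0.06 and -0.16 there. Higher in clone 2 without overlap were ZNF462, ZNF277, ZNF217, ZNF581 (0.43) and ZNF524 (0.34). The ZNF277 call in clone 2 ended without any single parental array or clone 2 replicate 1 or 2 (highest adjusted p = 0.0976). The ZNF581 call ended without parental replicate 2 (adjusted p = 0.0775) and the ZNF524 call without parental replicate 2 or 3 or clone 2 replicate 1 or 3 (highest adjusted p = 0.104).

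In clone 3, 15 ZNF genes were higher (6.79%, against 6.22% and 8.92%) and 32 lower (14.5%, against 11.0% and 15.9%), with a median change of -0.07. Under renewed quantile normalization the split was 22 and 22 with a median of 0.00. The counts were 5 and 19 without parental replicate 2 and 6 and 18 without parental replicate 3. The count higher was 9 without parental replicate 1 and 6 without clone 3 replicate 1 or 2, and the count lower was 16 without clone 3 replicate 3. Of the ZNF genes 5 passed 2-fold (2.26%, against 1.35% of all genes), and all were lower: ZNF592 (-1.38), ZNF703 (-1.30), ZNF532 (-1.27), ZNF280C (-1.16) and ZNF93 (-1.01).

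ZNF532, the partner of ZNF592 named above, read 8.38, 8.18 and 8.37 in the parental arrays, 8.18, 8.46 and 8.42 in clone 1, 8.21, 8.33 and 7.97 in clone 2, 6.99, 7.01 and 7.11 in clone 3 and 7.87, 7.99 and 8.28 in clone 6. Clone 3 stood alone, 2.41-fold below the parental line (SE 0.12, adjusted p = 5.53e-06). In the other 3 clones the gene was not called. ZNF280C read 7.66, 7.93 and 8.11 in the parental arrays and 6.63, 7.03 and 6.55 in clone 3 (adjusted p = 2.95e-05), and it was also lower in clones 2 and 6 (-0.55 and -0.46). Its clone 3 arrays lay below all arrays of the other groups.

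The ZNF genes that rose most in clone 3 without overlap were ZNF415 (0.83), ZNF175 (0.77), ZNF138 (0.60), ZNF514 (0.54) and ZNF607 (0.53). ZNF514 read 6.94, 7.10 and 6.72 in the parental arrays and 7.70, 7.38 and 7.31 in clone 3, and its change in the other clones was between -0.07 and 0.11. ZNF607 read 7.40 to 7.52 in the parental arrays and 8.18, 8.12 and 7.69 in clone 3. The ZNF514 call ended without parental replicate 3 (adjusted p = 0.0502) and the ZNF138 call without parental replicate 1 or 2 or clone 3 replicate 1 or 2 (highest adjusted p = 0.0677).

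In clone 6, 6 ZNF genes were higher (2.71%, against 7.73% and 10.7%) and 57 lower (25.8%, against 14.7% and 21.0%), with a median change of -0.17 beside -0.02 for all genes and -0.08 for genes of 6.0 or more. Renewed quantile normalization gave 13 and 40. The count higher was 3 without parental replicate 3 or clone 6 replicate 3, the counts were 4 and 40 without parental replicate 2, and the count lower stayed between 40 and 60 when any array was left out. ZNF703 (-1.63), ZNF486 (-1.33) and ZNF83 (-1.09) were lower by at least 2-fold (1.36% of ZNF genes, against 2.19% of all genes).

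ZNF486 read 7.31, 7.48 and 7.61 in the parental arrays, 7.35, 7.45 and 7.69 in clone 1, 7.46, 7.63 and 7.62 in clone 2, 7.19, 6.99 and 7.03 in clone 3 and 6.23, 6.00 and 6.19 in clone 6. Clone 6 was far below every other array (2.51-fold below parental, SE 0.11, adjusted p = 8.55e-07), and clone 3 lay a little below the parental range (-0.39, adjusted p = 0.0269). ZNF83 read 6.75, 6.79 and 6.61 in the parental arrays and 6.21, 5.11 and 5.56 in clone 6 (SD 0.56), a wide spread around a fall of 1.09 (adjusted p = 0.00125). Higher in clone 6 without overlap were ZNF277 (0.76), ZNF786 (0.47), ZNF800 (0.40), ZNF460 (0.34) and ZNF217 (0.32). The ZNF800 call ended without parental replicate 1 or clone 6 replicate 3 (highest adjusted p = 0.0616). The ZNF460 call in clone 6 ended without any single parental array or clone 6 replicate 1, and the ZNF217 call there without parental replicate 3 or clone 6 replicate 1 or 3 (highest adjusted p = 0.143 and 0.176).

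Over the 4 clones, 106 ZNF genes (48.0%) were called against the parental line in at least 1 clone, beside 37.5% of all genes. All genes include many dimmer ones, and this share was not computed for genes of 6.0 or more. In single clones 19.9%, 21.3%, 21.3% and 28.5% of ZNF genes were called in clones 1, 2, 3 and 6. For genes of 6.0 or more the shares were larger, at 24.9%, 23.8%, 24.8% and 31.7%. ZNF175, ZNF415 and ZNF652 were called higher in 1 or more clones and lower in another, a share of 1.36% that is near the 1.25% of all genes. ZNF175, first known as a repressor of HIV transcription in macrophages, read 7.28, 7.41 and 6.92 in the parental arrays, 6.27, 6.53 and 6.62 in clone 1, 6.28, 6.64 and 6.62 in clone 2, 7.81, 8.01 and 8.10 in clone 3 and 6.03, 6.35 and 6.27 in clone 6. ZNF415 read 6.73, 6.63 and 6.83 in the parental arrays, 5.78, 6.10 and 5.69 in clone 1, 5.99, 5.90 and 6.23 in clone 2, 7.47, 7.91 and 7.28 in clone 3 and 6.19, 5.92 and 5.93 in clone 6. For both genes the clone 3 arrays lay above, and those of the other clones below, all 3 parental arrays. The changes of ZNF175 were -0.73, -0.69, 0.77 and -0.99 (SE 0.15, highest adjusted p = 0.00379) and those of ZNF415 were -0.87, -0.69, 0.83 and -0.72 in clones 1, 2, 3 and 6 (SE 0.15, highest adjusted p = 0.00565).

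**Figure D3:**
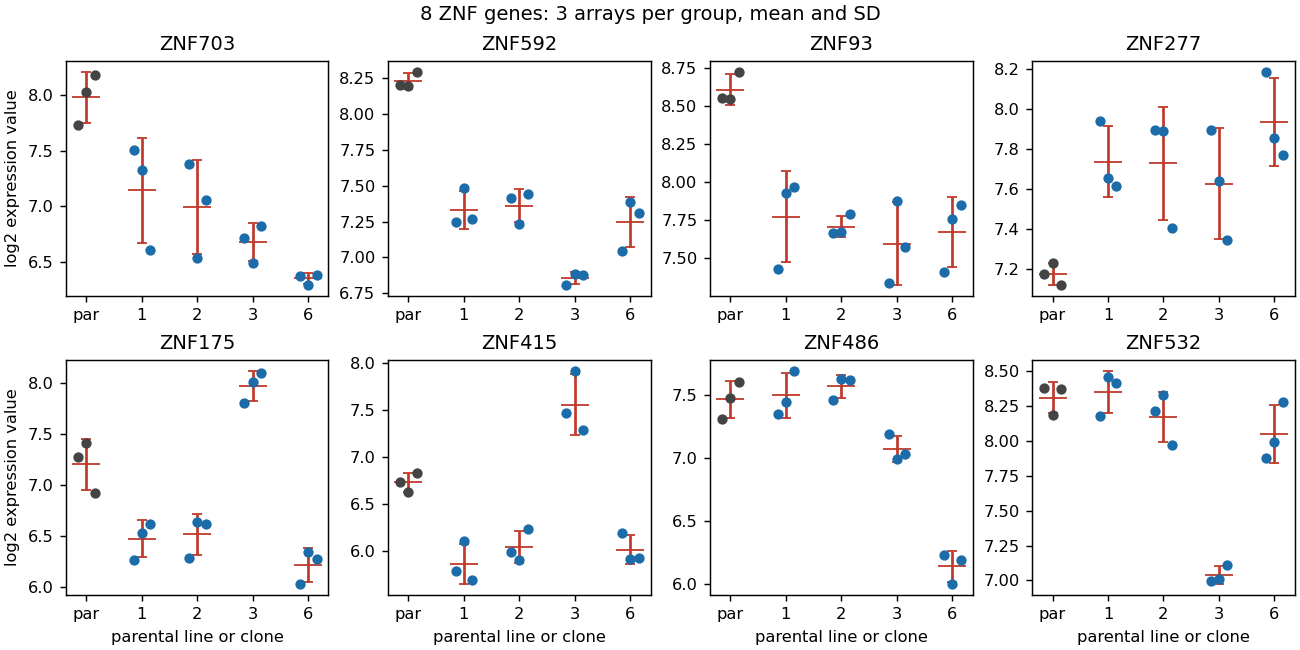
Log2 expression values of 8 ZNF genes in the parental line (par, dark points) and clones 1, 2, 3 and 6 (blue points), 3 arrays each, with the group mean (long bar) and SD (error bar); each panel has its own vertical axis, which does not start at 0. ZNF175 and ZNF415 are high only in clone 3 among the clones, ZNF532 is low in clone 3 and ZNF486 in clone 6.

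Whether the clones differed among themselves was tested without the parental arrays in the contrast. Between clones 1 and 2 limma called 0 ZNF genes and 0 of all genes; 11 ZNF genes and 807 of all genes had an unadjusted p below 0.05. An F test among the 4 clones called 64 ZNF genes (29.0%, against 22.5% of all genes and 32.4% of genes of 6.0 or more). The smallest adjusted p-values belonged to ZNF486 (9.06e-07), ZNF175 (1.37e-06), ZNF415 (2.43e-06), ZNF532 (5.03e-06), ZNF462 (3.04e-05), ZNF613 (0.000102), ZNF652 (0.00022) and ZNF609 (0.00029).

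Against clone 3, the mean of clones 1 and 2 was higher for 19 ZNF genes (8.60%, against 9.61% of all genes and 14.1% of genes of 6.0 or more) and lower for 38 (17.2%, against 11.4% and 16.6%). The count higher was 12 without clone 3 replicate 3 and the count lower was 23 without clone 3 replicate 2. Higher were ZNF532 (1.22), ZNF695 (0.72), ZNF280C (0.71) and ZNF462 (0.71), and lower were ZNF415 (-1.60), ZNF175 (-1.48), ZNF346 (-0.74) and ZNF79 (-0.64), all without overlap. ZNF346, which binds double-stranded RNA, read 7.03, 7.27 and 7.27 in clone 1, 6.97, 7.07 and 7.27 in clone 2 and 7.78, 8.03 and 7.84 in clone 3, and 7.55 to 7.86 in the parental arrays. Clones 1 and 2 were thus below the parental line (adjusted p = 0.0216 and 0.00796) while the clone 3 change of 0.23 was not called.

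Against clone 6, the mean of clones 1 and 2 was higher for 30 ZNF genes (13.6%, against 8.26% of all genes and 11.9% of genes of 6.0 or more) and lower for 13 (5.88%, against 7.26% and 10.7%). The counts were 18 and 6 without clone 6 replicate 2 and 16 and 6 without clone 6 replicate 3. ZNF486 (1.4), ZNF83 (0.96), ZNF462 (0.91) and ZNF878 (0.84) were higher, and ZNF786 (-0.61), ZNF800 (-0.54), ZNF821 (-0.54) and ZNF331 (-0.46) lower, without overlap. ZNF878 was at 6.65 to 6.73 in the parental arrays and at 5.37, 5.83 and 6.21 in clone 6, which did not overlap. ZNF331, an imprinted gene, read 6.22, 6.47 and 6.24 in clone 1, 6.15, 6.19 and 5.90 in clone 2 and 6.58, 6.64 and 6.73 in clone 6.

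Clone 3 was higher than clone 6 for 26 ZNF genes (11.8%, against 4.96% of all genes and 6.88% of genes of 6.0 or more) and lower for 6 (2.71%, against 4.06% and 6.06%); in either direction 9.01% of all genes were called. The count higher was 15 without clone 3 replicate 1 or 2 and 16 without clone 6 replicate 3, and the count lower was 3 without clone 3 replicate 1 or 3 or clone 6 replicate 3. The genes with the largest differences were ZNF175 (1.76, 3.39-fold, adjusted p = 1.41e-06), ZNF415 (1.54, 2.91-fold, adjusted p = 1e-05), ZNF486 (0.94) and ZNF83 (0.84), and on the other side ZNF532 (-1.01), ZNF280C (-0.70), ZNF609 (-0.45) and ZNF592 (-0.39). The ZNF83 and ZNF592 calls ended on leaving out single arrays of clones 3 or 6, replicate 1 or 2 of clone 3 and replicate 2 or 3 of clone 6 for either gene and also clone 3 replicate 3 for ZNF592 (highest adjusted p = 0.0843 and 0.130).

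Chromosome 19 held 102 of the 221 genes (46.2%), beside 7.92% of all genes tested. These were called higher and lower in 4 and 8 cases in clone 1, 2 and 16 in clone 2, 6 and 9 in clone 3 and 1 and 29 in clone 6, and the 119 genes elsewhere in 10 and 22, 5 and 24, 9 and 23, and 5 and 28. The shares lower on chromosome 19 were 7.84%, 15.7%, 8.82% and 28.4% in clones 1, 2, 3 and 6, beside 21.9%, 18%, 17.4% and 23.3% of the 356 other genes of 6.0 or more on that chromosome. The shares higher were 3.92%, 1.96%, 5.88% and 0.98%, beside 4.78%, 6.74%, 5.06% and 7.58%. The median change on chromosome 19 in clone 6 was -0.23, beside -0.16 for the ZNF genes elsewhere and -0.11 for those 356 genes. Of the 26 ZNF genes higher in clone 3 than in clone 6, 16 lay on chromosome 19 (15.7% of the ZNF genes there, beside 2.25% of the 356 other genes), and the 6 that were lower lay elsewhere (3.93% of the 356 were lower).

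Placed in the gene order of the RefSeq table, the longest stretch of neighbouring ZNF genes called together was in clone 6. There 8 tested genes in a row were lower, namely ZNF577, ZNF649, ZNF613, ZNF350, ZNF615, ZNF614, ZNF432 and ZNF841, and 6 of them are above the limit (ZNF615 and ZNF432 are under it). Over all chromosomes clone 6 had 30 such rows of at least 4 genes lower together, 12 of at least 5 and 2 of at least 8. ZNF350, a KRAB protein that binds BRCA1, read 6.82, 6.90 and 6.89 in the parental arrays and 6.07, 5.87 and 5.78 in clone 6 (change -0.97, SE 0.15, adjusted p = 0.000238). ZNF613 read 7.09, 7.27 and 7.33 in the parental arrays, 7.48, 7.48 and 7.34 in clone 3 and 6.62, 6.66 and 6.58 in clone 6 (change in clone 6 -0.61, SE 0.10, adjusted p = 0.000252). Clone 6 lay below all other arrays for both genes. The other 4 fell in clone 6 by 0.49 (ZNF577), 0.35 (ZNF649), 0.67 (ZNF614) and 0.62 (ZNF841), and the ZNF649 call ended under renewed quantile normalization and on leaving out any parental or clone 6 array, clone 2 replicate 3 or clone 3 replicate 1 (highest adjusted p = 0.176).

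In clone 3 none of these 6 genes was called against the parental line, and 5 of them were higher in clone 3 than in clone 6 by 0.43 to 0.82; ZNF614 differed by 0.37 and was not called. The ZNF649 call in this contrast ended without clone 3 replicate 1 or 2 or clone 6 replicate 1 or 3 (highest adjusted p = 0.156). ZNF175 and ZNF415 flank the same stretch. Between them, with bounds chosen after the values were seen and neither bounding gene counted, lay 29 tested genes, 14 of them ZNF genes above the limit. In clone 6, 9 of these 14 were lower and 0 higher (median -0.52), and the median change in clone 3 was 0.01. In clone 1 ZNF480 was lower and in clone 2 ZNF480 and ZNF577 were, with medians of -0.13 and -0.26. Of all 29 tested genes, 14 were lower and 0 higher in clone 6 (median -0.37), and their median in clone 3 was 0.04. In clone 6, 14.7% of all genes were lower, and 21.0% of genes of 6.0 or more. Since the bounds were set on values, these counts are a description. Within the stretch ZNF616, ZNF766, ZNF611 and ZNF160 differed from parental by -0.09 to 0.03 in clone 6 and were not called.

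**Figure D4:**
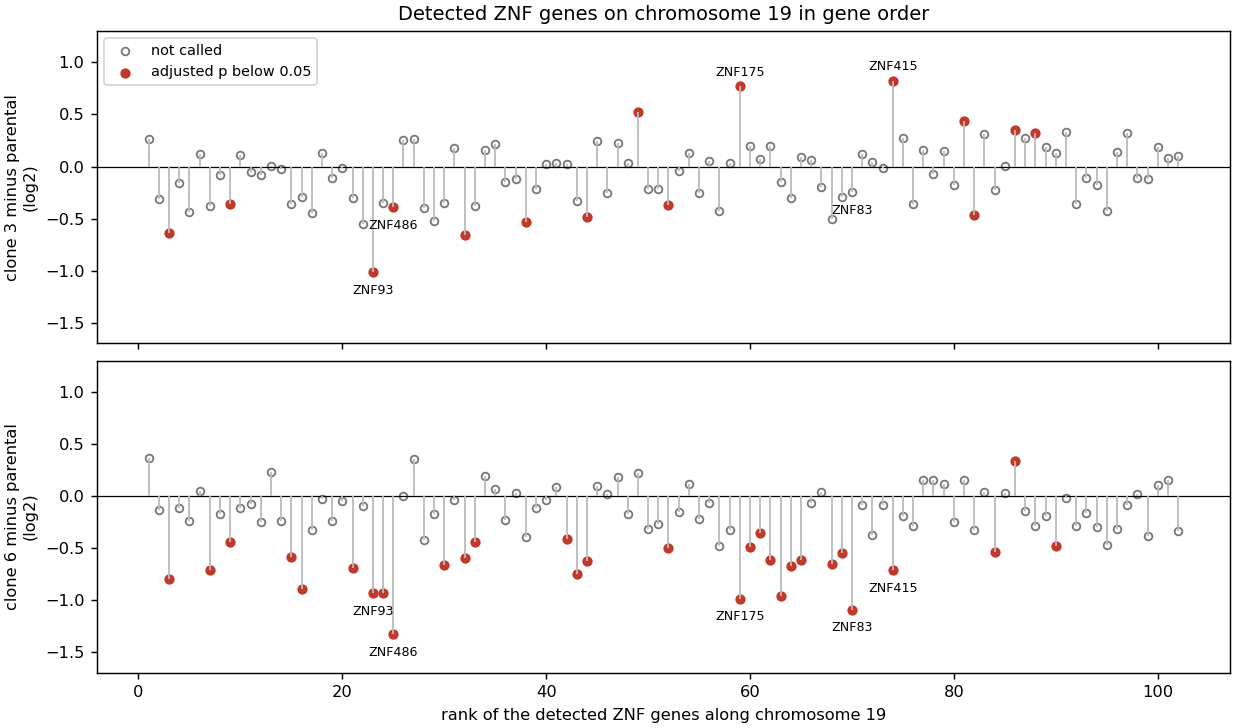
Log2 change from parental in clone 3 (top) and clone 6 (bottom) for the 102 detected ZNF genes of chromosome 19, ranked by gene order; filled points are called at an adjusted p below 0.05, and 5 genes are labelled. ZNF175 and ZNF415 are up in clone 3 and down in clone 6, and every gene between them that was called in clone 6 is down.

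The sequences below are the 250 bases before the annotated start of 5 of the 6 neighbours that fell together in clone 6 (ZNF649 had no entry) and of ZNF175 and ZNF415, which moved in opposite directions in clones 3 and 6. They are from RefSeq, GRCh38.p14, written 5′ to 3′ on the strand of the gene. Each lies upstream of the transcribed part. Capitals mark ATGGCTGC, an octamer picked out after reading these windows, and TCCTCGGCCGCCGTAGG, the longest run that any pair of them shares.
ZNF577 (chr19:51887952-51888201, minus strand): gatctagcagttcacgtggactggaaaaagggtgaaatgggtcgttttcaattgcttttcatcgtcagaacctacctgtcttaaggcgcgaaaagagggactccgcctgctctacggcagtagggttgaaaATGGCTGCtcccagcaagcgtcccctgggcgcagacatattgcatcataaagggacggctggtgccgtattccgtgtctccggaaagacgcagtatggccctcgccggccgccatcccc
ZNF613 (chr19:51927222-51927471, plus strand): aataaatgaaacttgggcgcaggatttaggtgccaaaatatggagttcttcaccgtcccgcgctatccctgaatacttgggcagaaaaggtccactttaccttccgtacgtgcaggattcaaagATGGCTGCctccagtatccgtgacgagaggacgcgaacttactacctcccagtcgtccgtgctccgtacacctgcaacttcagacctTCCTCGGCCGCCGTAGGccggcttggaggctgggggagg
ZNF350 (chr19:51986841-51987090, minus strand): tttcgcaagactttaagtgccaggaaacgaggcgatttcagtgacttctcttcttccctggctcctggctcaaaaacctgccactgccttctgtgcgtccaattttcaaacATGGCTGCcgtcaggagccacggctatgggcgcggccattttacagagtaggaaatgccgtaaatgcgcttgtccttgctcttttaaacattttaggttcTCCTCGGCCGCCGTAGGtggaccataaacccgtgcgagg
ZNF614 (chr19:52028380-52028629, minus strand): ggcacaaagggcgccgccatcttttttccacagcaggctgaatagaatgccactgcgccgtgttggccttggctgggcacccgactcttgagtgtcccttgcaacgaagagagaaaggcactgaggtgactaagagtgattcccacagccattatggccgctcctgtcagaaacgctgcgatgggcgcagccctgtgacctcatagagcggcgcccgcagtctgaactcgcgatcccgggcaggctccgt
ZNF841 (chr19:52095766-52096015, minus strand, first of 2 windows): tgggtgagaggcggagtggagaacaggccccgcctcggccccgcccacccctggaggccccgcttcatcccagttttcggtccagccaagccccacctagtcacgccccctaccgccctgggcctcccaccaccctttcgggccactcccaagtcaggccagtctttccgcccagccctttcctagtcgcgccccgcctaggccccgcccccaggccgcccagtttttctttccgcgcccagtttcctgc
ZNF175 (chr19:51571033-51571282, plus strand): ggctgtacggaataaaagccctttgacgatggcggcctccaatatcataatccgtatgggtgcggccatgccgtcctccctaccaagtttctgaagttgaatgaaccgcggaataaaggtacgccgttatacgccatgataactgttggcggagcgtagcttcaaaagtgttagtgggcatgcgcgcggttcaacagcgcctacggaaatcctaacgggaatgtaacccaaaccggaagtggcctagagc
ZNF415 (chr19:53132911-53133160, minus strand): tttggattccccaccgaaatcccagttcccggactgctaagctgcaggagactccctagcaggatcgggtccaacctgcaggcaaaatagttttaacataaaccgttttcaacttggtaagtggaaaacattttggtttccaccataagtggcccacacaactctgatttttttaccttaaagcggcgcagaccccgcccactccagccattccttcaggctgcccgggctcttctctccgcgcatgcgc
The octamer begins 119, 126 and 139 bases before the start in ZNF577, ZNF613 and ZNF350. On either strand of the 250 bases it was present in 2.79% of the windows of the ZNF genes, or 1.61% without the 3 windows it was picked from, and in 1.19% of the windows of genes of 6.0 or more and 1.22% of all windows. The run of 17 bases in ZNF613 and ZNF350 was found in 2 of 35116 windows, those of these same genes. ZNF614, ZNF841, ZNF175 and ZNF415 hold neither. A match describes the letters and shows no binding.

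Over all ZNF genes, 193 of the 221 had at least 1 RefSeq window (251 windows of 300 bases, 250 before and 50 after the start). The CCAAT box bound by NFY (CCAAT, either strand) was in 45.4% of the ZNF windows, 35.7% of those of genes of 6.0 or more and 34.6% of all windows. The ETS motif CCGGAAGT was in 12%, 8.72% and 4.14%. The SP1 box GGGCGG was in 63.7%, 69.8% and 45.0% and the MYC E-box CACGTG in 4.38%, 9.80% and 7.26%. The median number of CG pairs per window was 22, 26 and 14. These shares are descriptions of windows that are in part related to each other.

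Other rows of neighbours lay on chromosomes 1 and 7. Of the 586 genes of 6.0 or more on chromosome 1, 13.3% and 21.7% were lower than parental in clones 3 and 6. Of the 294 such genes on chromosome 7, 40.1% were lower in clones 1 and 2 than in clone 3, and 31.3% than in clone 6. Over all chromosomes these contrasts of clones 1 and 2 had 24 and 11 rows of at least 4 genes lower together. On chromosome 1, ZNF695, ZNF669, ZNF124 and ZNF496, with MIR3916 between the last pair, were lower together in clone 6 (-0.62, -0.51, -0.39 and -0.64). ZNF695 read 8.43, 8.48 and 8.34 in the parental arrays, 7.66, 7.63 and 7.92 in clone 3 and 7.64, 7.73 and 8.02 in clone 6. The first 3 of them were lower in clone 3 too (-0.68, -0.53 and -0.35), as was ZNF496 (-0.61); the ZNF124 call in clone 3 ended under renewed quantile normalization and without parental replicate 1 or 3 or clone 3 replicate 3 (highest adjusted p = 0.0769). On chromosome 7, ZNF786, ZNF398 and ZNF282, with ZNF425 (under the limit) among them, were lower in clones 1 and 2 than in clone 3 (-0.44, -0.39 and -0.40) in a row of 7 that also held CNTNAP2, CUL1 and EZH2. They were also lower there than in clone 6 (-0.61, -0.29 and -0.45). ZNF398 read 8.12 to 8.14 in the parental arrays and 7.44 to 7.64 over clones 1 and 2. The ZNF282 difference from clone 3 was not called without clone 3 replicate 1 or 2, and those of ZNF282 and ZNF398 from clone 6 were not called without clone 6 replicate 2 or 3 (highest adjusted p = 0.106, 0.0950 and 0.0792).

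Several ZNF genes lie on chromosomes where many other genes were called the same way. All 5 ZNF genes of chromosome 15 were lower in clone 3, namely ZNF592, ZNF770 (-0.71), ZNF609 (-0.59), ZNF774 (-0.52) and ZNF106 (-0.41), where 59.2% of the 191 genes of 6.0 or more on that chromosome were lower. The ZNF106 call ended under renewed quantile normalization and without any single parental or clone 3 array (highest adjusted p = 0.113). On chromosome 5, 3 of 4 were higher in clone 3 (ZNF354A 0.43, ZNF131 0.43 and ZNF622 0.38), beside 22.9% of 236 genes. On chromosome 12, ZNF384, ZNF385A (-0.87), ZNF605 (-0.67) and ZNF26 (-0.43) were lower in clone 6, 4 of 6, beside 37.4% of 313 genes. On the X chromosome 3 of 4 ZNF genes, ZNF280C among them, were lower in clone 3, beside 46.6% of 163 genes. Chromosome 8 held 7 ZNF genes, ZNF703 among them. Of these, 2, 3, 1 and 4 were lower in clones 1, 2, 3 and 6, beside 12.2%, 13.8%, 36.5% and 42.9% of 189 genes. The part of these chromosome-wide differences in the ZNF values was not tested.

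ZNF652, a repressor that acts with CBFA2T3 in breast epithelium, and ZNF217, an oncogene of chromosome 20, were high-reading genes with moderate changes. ZNF652 read 10.78, 10.79 and 10.74 in the parental arrays, 11.10, 11.22 and 11.36 in clone 1, 11.01, 11.25 and 11.05 in clone 2, 10.82, 10.93 and 10.74 in clone 3 and 10.59, 10.37 and 10.46 in clone 6. Clones 1 and 2 lay above the parental arrays, clone 6 below them, and clone 3 had 1 array within the parental range and 2 above it. The rises were 0.46 and 0.34 in clones 1 and 2 (adjusted p = 0.00547 and 0.0328) and the fall in clone 6 was 0.30 (adjusted p = 0.047). The clone 2 call ended without any single parental array or clone 2 replicate 2 or 3 (highest adjusted p = 0.137), and the clone 6 call ended in 11 of 22 other settings (highest adjusted p = 0.169). Those were the replicate block, renewed quantile normalization, no filter, and leaving out any parental array, clone 1 replicate 2, clone 2 replicate 3, clone 3 replicate 1 or clone 6 replicate 2 or 3.

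ZNF217 read 9.48, 9.49 and 9.18 in the parental arrays, 9.97, 9.93 and 9.94 in clone 1, 9.92, 9.85 and 9.72 in clone 2, 9.33, 9.37 and 9.31 in clone 3 and 9.79, 9.62 and 9.70 in clone 6. It rose in clones 1 and 2 without overlap (0.57 and 0.45, SE 0.10, adjusted p = 0.00107 and 0.00575). Clone 3 lay within the parental range (-0.05). Of the other genes in the fixed set of the naming rule, ZNF24, ZNF143, ZNF148, ZNF281, ZNF274 and ZNF750 were called in no clone against the parental line. The largest change among these was -0.57, in ZNF750, a gene of epithelial differentiation, whose clone arrays ran from 5.73 to 6.90. ZNF587 (mean 5.42) and ZNF432 (5.86) lay under the limit, and ZNF365 was not analysed here.

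The partners of KRAB zinc fingers were taken as a list of 42 genes, of which 36 had a symbol and were tested; SETDB1 was not analysed here. Higher and lower were 2 and 7 of them in clone 1, 2 and 8 in clone 2, 2 and 5 in clone 3 and 1 and 8 in clone 6, with medians of -0.12, -0.13, -0.05 and -0.11. The shares lower were 19.4%, 22.2%, 13.9% and 22.2%, beside 11.2%, 11.5%, 11.0% and 14.7% of all genes. Of genes of 6.0 or more, 15.9%, 16.6%, 15.9% and 21.0% were lower, so the clone 3 share was under that level. The shares higher were 5.56%, 5.56%, 5.56% and 2.78%, beside 6.03%, 5.47%, 6.22% and 7.73% of all genes. For genes of 6.0 or more they were 9.02%, 7.22%, 8.92% and 10.7%. Whether the list differs from other genes of its level was not tested. TRIM28, the co-repressor itself, read 9.99, 9.76 and 9.95 in the parental arrays, 9.18, 9.38 and 9.03 in clone 1, 9.29, 9.37 and 9.51 in clone 2, 9.37, 9.54 and 9.68 in clone 3 and 9.02, 9.58 and 9.65 in clone 6. All clone arrays were below the parental ones, with called changes of -0.70, -0.51 and -0.48 in clones 1, 2 and 6 (adjusted p = 0.00407, 0.0274 and 0.0305) and -0.37 in clone 3 (adjusted p = 0.106). GATAD2B, of the NuRD complex, read 10.14 to 10.19 in the parental arrays and fell by 0.58, 0.68, 0.54 and 0.78 in clones 1, 2, 3 and 6. ATF7IP, which stabilises SETDB1, fell by 0.33, 0.44, 0.36 and 0.60. Among the largest called changes were also SUV39H1 (-0.58 and -0.50) and SUV39H2 (-0.57 and -0.50) in clones 1 and 2. ATRX was among them in clones 2 and 3 (-0.46 and -0.70) and EHMT2 in clone 6 (-0.51). ZKSCAN1, a SCAN and KRAB protein, rose in all 4 clones (0.38, 0.41, 0.64 and 0.89), and DNMT3A, a DNA methyltransferase, in clones 1, 2 and 3 (0.49, 0.45 and 0.32).

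ZNF genes under the limit and related families were counted in the same fit. Of the 205 tested ZNF genes with a mean below 6.0, 7 and 16, 9 and 20, 5 and 9, and 7 and 30 were higher and lower in clones 1, 2, 3 and 6 (medians -0.07, -0.09, -0.03 and -0.12). The shares lower were 7.80%, 9.76%, 4.39% and 14.6%, beside 11.2%, 11.5%, 11.0% and 14.7% of all genes. All genes include many brighter ones, which were called more often, and shares for all genes below 6.0 were not computed. How these ZNF genes stand beside other genes of their level is therefore not shown. Of 83 tested ZFP, ZSCAN, ZKSCAN and ZBTB genes, 5 and 10, 4 and 13, 7 and 7, and 5 and 7 were higher and lower in clones 1, 2, 3 and 6 (medians -0.05, -0.07, 0.02 and -0.03), and the shares lower were 12%, 15.7%, 8.43% and 8.43%. Whether these lists differ from the ZNF genes above the limit was not tested.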

How the data were processed

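Total RNA from parental BT474 and clones 1, 2, 3 and 6 was hybridised to 15 Affymetrix arrays, 3 per group. The deposited values, 1 for each of 53617 probe sets, are on a log2 scale; the submitters' processing notes name RMA, the Transcriptome Analysis Console and Affymetrix Expression Console 1.4.1 without their roles. RMA subtracts background, makes array distributions alike and summarises probes on the log2 scale, so small changes are compressed near background and a shift of most genes would be largely removed. The sources used here do not give the genome build of the probe sets.

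A symbol was paired with 16098 probe sets and none with 37519, which were left out of the gene tests. A probe set was kept where at least 3 arrays had it over their 40th percentile, and the one with the highest mean stood for a gene, which left 12147 genes and all 221 ZNF genes (7 with several probe sets). All 221 matched the RefSeq gene table (GRCh38) by gene ID, used for names and gene order.

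With limma 3.58.1 in R 4.3.3 (lmFit, contrasts.fit and eBayes) all 15 arrays were fitted with 5 group means, with 10 residual degrees of freedom before moderation. Adjusted p-values are Benjamini-Hochberg values over all genes within a comparison, called below 0.05. Fold changes are on the log2 scale of the deposited values. The steps were tested on simulated data. The number of arrays limits the precision.

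The ZNF genes, the lists, the joining of clones 1 and 2 and the naming rule were chosen with earlier results of these data known. The rule names up to 8 higher and 8 lower called genes in the mean of the 4 clones and up to 5 each per clone, with arrays that do not overlap. It adds the 8 with the smallest F test p, up to 4 each per contrast between clones, the 5 with the highest mean, those next to the limit, a fixed set, and called partners. Subgroups by KRAB box and number of fingers were planned and not analysed here. Replicate numbers were checked for pairing by correlating deviations from group means over 30 same-numbered pairs: no pair with a parental array was over 0.1 (highest 0.07), while 10 of the 18 pairs among clones were, including all 6 of replicate 1 and all 3 of clones 1 and 6 (highest 0.46). As not every pair of a tested comparison passed, the numbers were not taken to pair the samples. Alternatives were no filter, renewed quantile normalization, median centring, the replicate block, trend and robust moderation, the mean of all probe sets, array weights, the genes set aside counted in, and each array left out. Plots came from matplotlib 3.10.9 (Python 3.11.15).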

Additional observations from a re-analysis of the deposited data

Results flagged for a closer look

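In 3 ZNF genes (1.36%, near the 1.25% of all genes) the change from the parental line was called in opposite directions in different clones. Genes picked in this way differ between those clones by the choice itself. The contrasts between clones below therefore give sizes and are no separate support. ZNF175 was lower in clones 1 and 2 than in clone 3 by 1.48 on the log2 scale (value -1.48, SE 0.13, limma adjusted p = 8.22e-07) and higher in clone 3 than in clone 6 by 1.76 (adjusted p = 1.41e-06). ZNF415 gave -1.60 (SE 0.13, adjusted p = 6.52e-07) and 1.54 (adjusted p = 1e-05) in the same contrasts. ZNF652 was higher in clones 1 and 2 than in clone 3 by 0.33 (adjusted p = 0.0125) and than in clone 6 by 0.70 (adjusted p = 5.96e-05), and higher in clone 3 than in clone 6 by 0.36 (adjusted p = 0.0363). ZNF652 was picked only through its call as lower in clone 6, which ended in 11 of 22 other settings (highest limma adjusted p = 0.169). Single values within groups of 3 arrays were not tested for standing apart.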

How the results depend on the processing

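Of 124 calls of named ZNF genes and their neighbours, 93 held under all 22 other settings that could change them, 31 were lost under at least 1, and 0 reversed; 23 were lost on leaving out 1 array and under no other setting. Renewed quantile normalization gave 13 higher and 24 lower ZNF genes in clone 2, 13 higher in clone 6, and 17 higher and 33 lower in the mean of the 4 clones; array weights gave 15 higher in the mean of the 4 clones. The cause was not tested. Shares of all genes under these settings and those below are not given, so a changed count need not be particular to ZNF genes. Leaving out each array in turn gave 7 to 14 higher and 17 to 34 lower in clone 1, 2 to 8 and 25 to 44 in clone 2, 5 to 16 and 16 to 35 in clone 3, 3 to 7 and 40 to 60 in clone 6, and 3 to 13 and 28 to 58 in the mean of the 4 clones. For clones 1 and 2 against clone 3 it gave 12 to 22 and 23 to 40, against clone 6 16 to 31 and 6 to 14, for clone 3 against clone 6 15 to 28 and 3 to 7, for the F test 51 to 68, and for clone 1 against clone 2 0. With the replicate block, the numbers not taken to pair the samples (own number best in 14 of 30 pairs), the counts were 14 and 34, 8 and 45, 15 and 38 and 6 and 63 in clones 1, 2, 3 and 6, 10 and 57 in the mean of the 4 clones, and 70 in the F test. Counting in the genes set aside gave 36, 46, 34 and 61 lower in clones 1, 2, 3 and 6. The number of arrays, 3 per group, limits the precision.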
